A study of Mus musculus with 2 samples.

Results

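Ccl20, Ccl6, Ccl9, Gp2, Tnfaip2 and Pglyrp1 are genes known from microfold cells, and they were followed through every gated cell type and mouse of a thymic epithelial sort. They were taken by symbol, and all 6 were found among the 55487 genes of the deposited matrix. They were listed as microfold genes with earlier results of these data known, so their height in microfold-like cells is a description of known markers and not independent evidence.

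Microfold cells of the gut lie over lymphoid follicles, take up particles and microbes from the lumen and hand them to immune cells beneath. Their differentiation follows signals through the receptor RANK and depends on the transcription factors Spib and Sox8. In the thymus, a small group of medullary thymic epithelial cells (mTEC) takes on this program and belongs to the mimetic cells, which copy the expression of peripheral tissues. Of the secreted members, Ccl20 is the ligand of the receptor Ccr6, while Ccl6 and Ccl9 are CC chemokines that attract myeloid cells through Ccr1. Gp2 is a surface glycoprotein that binds fimbriated bacteria, Tnfaip2 (also called M-Sec) takes part in the formation of membrane nanotubes, and Pglyrp1 is a secreted protein that binds bacterial peptidoglycan.

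Thymi came from female mice aged 6 weeks of the strains C57BL/6 (B6), BALB/c and NOD, with 2 mice per strain. After magnetic depletion of CD45-positive cells, MHC class II-low mTEC negative for Pdpn and CD104 were sorted, tagged with 1 hashtag antibody per mouse and captured as 1 pooled droplet library. The mouse was the replicate, and the labels do not say whether the mice were littermates or cage mates. Of 3447 barcodes, 2527 passed the filters and 1705 were assigned to a mouse: 215 and 241 (B6), 412 and 595 (BALB/c), 120 and 122 (NOD). Median depth per cell lay between 13501 and 14692 unique molecular identifiers (UMIs, captured RNA molecules) over the 6 mice. A total of 1626 cells were epithelial and 57 leukocyte-like.

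The members lie on 4 chromosomes (mm10, GENCODE M21), and all are annotated as protein-coding. Ccl20 lies on chromosome 1 at 83116766 to 83119167, plus strand. Ccl9 (83572919 to 83578636) and Ccl6 (83587882 to 83593087) are neighbours on the minus strand of chromosome 11, with 9245 bases between them. Gp2 (119442537 to 119459285, minus strand) and Pglyrp1 (18871331 to 18890459, plus strand) are far apart on chromosome 7, and Tnfaip2 lies on chromosome 12 at 111442469 to 111455018, plus strand. The deposited identifier of Gp2 carries a later version than the annotation and was matched without it.

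All 6 members matched the RefSeq promoter table (GRCm38.p6), which holds 250 bases before to 50 bases after each RefSeq start. A stretch is shown for each of the Ccl20 and Pglyrp1 promoters because Ccl20 was the member most restricted to microfold-like cells and Pglyrp1 the member found in every one of them, and a short stretch is shown for Ccl6 and Ccl9 because the windows of these neighbours resemble each other. In the first pair, capitals mark matches to AGGAAG on either strand (CTTCCT is its reverse complement), a hexamer that holds the core bound by Ets factors such as Spib, or to GGGNNNNCCC, the outline of an NF-kB site. The stretches are chr1:83116516-83116709 for Ccl20 and chr7:18884484-18884647 for Pglyrp1, both on the plus strand. The latter lies inside the GENCODE gene, which starts upstream of the RefSeq start.
Ccl20: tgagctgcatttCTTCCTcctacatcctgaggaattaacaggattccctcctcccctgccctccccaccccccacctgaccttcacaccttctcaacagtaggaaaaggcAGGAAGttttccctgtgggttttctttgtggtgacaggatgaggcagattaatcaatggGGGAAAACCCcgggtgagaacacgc
Pglyrp1: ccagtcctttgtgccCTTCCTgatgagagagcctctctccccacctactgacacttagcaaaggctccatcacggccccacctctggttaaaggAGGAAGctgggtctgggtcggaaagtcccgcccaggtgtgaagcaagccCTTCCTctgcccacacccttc
In Ccl20 the matches begin at positions -238, -140 and -81 from the RefSeq start, the last being GGGAAAACCC. In Pglyrp1 the hexamer begins at -191, -112 and -63. It was found in 35.4% of 32851 promoter windows of this length, and GGGNNNNCCC in 11.9%, so either match is common. The motifs were chosen after the sequences had been read, and a match is a description of letters and not a binding site. Ccl6 held the hexamer at -73 and -47 and Gp2 at 13, while the windows of Ccl9 and Tnfaip2 held neither motif.

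The Ccl6 and Ccl9 windows could be aligned over 74 columns with 58 identical bases (78.4%), at a local alignment score of 38, against scores of 9 to 13 for the other member pairs. Capitals below mark the 16 of 18 bases that are identical in the part of the alignment before the Ccl9 start. This part is chr11:83593129-83593146 for Ccl6 and chr11:83578637-83578654 for Ccl9, both read on the minus strand.
Ccl6: CTTgGCCCTCCACTTCCt
Ccl9: CTTtGCCCTCCACTTCCc
The stretch spans -59 to -42 in Ccl6 and -18 to -1 in Ccl9.

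Cell types were gated from marker genes that exclude the 6 members, with thresholds set after the data had been seen. The microfold gate used Sox8, Spib, Hamp, H2-M2, Serpinb1a, Icosl, Tnfrsf11b, Marcksl1 and Anxa5. It took 37 cells: B6 contributed 11 and 20, BALB/c 1 and 5, and NOD none. These are 5.24% (95% exact binomial interval 2.64% to 9.18%) and 9.09% (5.64% to 13.7%) of B6 epithelial cells and 0.255% (0.00646% to 1.41%) and 0.873% (0.284% to 2.02%) of BALB/c epithelial cells. In NOD, 0 of 111 and 0 of 120 cells allow shares of up to 2.7% and 2.5% by a limit of 3 counts, and up to 3.27% and 3.03% by the exact interval; such intervals and limits cover counting error only. Microfold-like levels are therefore known for B6 and, from few cells, BALB/c, and were not measured in NOD.

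The gate picked cells by the mean of its own markers, so their presence is no independent evidence for the label. Of the 9 gate markers, 8 were found in 75.7% to 100% of the 37 cells, whereas Icosl was found in 8.11%, below its 16.5% in the other epithelial cells. Epcam, an epithelial surface protein, was present in all 37 cells. The tuft markers Trpm5 and Chat were at 0. Of the other tuft markers, Dclk1 was found in 9 cells (24.3%, against 56.45% of the other epithelial cells), Avil in 4, and the rest in at most 3. The leukocyte markers Tyrobp, Itgax, Flt3, Xcr1, Siglech, Csf1r and Cd209a were at 0, with 3 UMIs of Ptprc (CD45) in all. Of the myeloid or dendritic markers, Lyz2 (25 of 37 cells), Laptm5 (31 of 37 cells) and Fcer1g (2 of 37 cells) were present. Of the B-cell, plasma-cell and thymocyte markers, Cd79b was found in 13 cells, Jchain in 9, and Cd79a, Cd3d and Lck in 1 each. Another epithelial program overlapped: 29 of the 37 cells also passed the enterocyte-hepatocyte gate, and Fabp1 was found in 75.7% and Reg3g in 86.5% of the 37. Clustering without the members placed 35 of the 37 cells in 1 of 17 clusters, which held 38 cells.

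The chemokines were the most sharply restricted members. Ccl20 reached 7987 and 9388 CPM (UMIs of the gene per 1000000 UMIs) in the microfold-like cells of the B6 mice (mean 8688 ± 990.6 SD, n = 2), 12660 CPM in the 5 cells of BALB/c 2 and 20820 CPM in the single cell of BALB/c 1. It was found in 35 of 37 cells. Among the epithelial types the next were far lower: enterocyte-hepatocyte-like cells had 112.7 and 158.5 CPM in the B6 mice, and keratinocyte-like cells had 59.3 and 78.6 CPM (B6), 332.3 and 26.7 CPM (BALB/c), and 18.7 and 42.8 CPM (NOD). Both types overlapped across mice and cannot be ordered, and the value of 332.3 CPM came from a single cell with 127 UMIs. Below them, tuft-like cells lay between 0 and 3.02 CPM, with a UMI in 17 of 527 cells, and no UMI was found in 60 neuroendocrine-like or 21 muscle-like cells. Outside the epithelial types, 13 thymocyte-gated cells had 978.6 CPM, all from 1 cell of BALB/c 2, and 22 ungated non-epithelial cells 164.5 CPM. How much of the low counts in tuft-like cells came from free RNA in the droplets was not tested.

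Ccl6 and Ccl9 were also highest in microfold-like cells among the epithelial types. In microfold-like cells Ccl6 stood at 1294 and 2691 CPM in the B6 mice, 5793 in the cell of BALB/c 1 and 1539 in BALB/c 2. Ccl9 stood at 1958 and 1445 CPM (B6), 2625 CPM (BALB/c 1) and 948.9 CPM (BALB/c 2). The ranges of B6 and BALB/c thus overlapped for both genes. Enterocyte-hepatocyte-like cells came next, at 13.3 and 776 CPM for Ccl6 and 46.4 and 295.1 CPM for Ccl9 in B6 1 and B6 2. The difference between these mice was as large as the gap to other types: the B6 2 value of Ccl6 rests mainly on 2 cells with 85 and 50 UMIs. Keratinocyte-like cells were lower than for Ccl20 in this order, at 4.13 CPM of Ccl6 over all mice, below ciliated-like (39.0) and Aire-stage cells (23.3), and at 12.4 CPM of Ccl9, below ungated epithelial (86.9) and Aire-stage cells (15.4). In tuft-like cells the highest mouse had 0.927 CPM of Ccl6 and 1.88 CPM of Ccl9.

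The uptake gene Gp2 was less restricted. In microfold-like cells it stood at 3268 and 2860 CPM in the B6 mice (mean 3064 ± 288.9 SD, n = 2), 4842 in BALB/c 1 and 1539 in BALB/c 2, and it was absent from 12 of the 37 cells. Enterocyte-hepatocyte-like cells (874.9 and 519.1 CPM) and tuft-like cells (321 and 434 CPM) of B6 were adjacent and did not overlap. Neuroendocrine-like cells of B6 had 2317 and 412.6 CPM, a range that spans both, and 796 of the 800 UMIs in B6 1 came from 1 cell. Without that cell, the neuroendocrine-like cells of B6 1 had 13.0 CPM. Gp2 was also found in 5 of 8 cells that passed the secretory gate, 1 of which held 211 UMIs.

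Tnfaip2 had the widest spread over types. Microfold-like cells held 1252 and 1472 CPM in B6 (mean 1362 ± 155.7 SD, n = 2), while BALB/c 1 had 633.6 and BALB/c 2 had 1088 CPM. Enterocyte-hepatocyte-like cells of B6 followed at 119.3 and 366.1 CPM, next to keratinocyte-like cells, whose 6 mice lay between 74.8 and 122.6 CPM. Aire-stage cells, the mTEC that express the regulator Aire, lay between 37.9 and 96.5 CPM and immature mTEC-like cells between 23.5 and 54.6 CPM, so neighbours in this order overlapped. Tuft-like cells were at the low end, at most 15.1 CPM. The gene was also found in 17 of 22 myeloid or dendritic-like cells, at 128 CPM.

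Pglyrp1 was present in 37 of 37 microfold-like cells. Its level there was 16270 and 9007 CPM in the B6 mice, 1539 CPM in the single cell of BALB/c 1 and 3553 CPM in the 5 cells of BALB/c 2, so both BALB/c values lay below both B6 values. With 1 and 5 cells no test was made of that gap. Among epithelial types with more than 1 cell per B6 mouse, enterocyte-hepatocyte-like cells were next (1239 and 3126 CPM, 20 of 24 cells of that gate in all), and the 1 secretory-gated cell of each B6 mouse held 321 and 84 UMIs. Ciliated-like cells differed by mouse: 45.3 CPM in B6 1, 0 in the 4 cells of B6 2, 199 and 183.1 (BALB/c), then 1317 and 1434 (NOD). The NOD values came from 8 and 3 cells, of which 10 carried the gene, and since no strain other than BALB/c had 2 sums of at least 10 ciliated-like cells, this order was not tested. Thinned to 5000 UMIs per cell, the share of ciliated-like cells with Pglyrp1 was 0 of 14 (B6), 41.7% (BALB/c) and 81.8% (NOD).

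**Figure D1:**
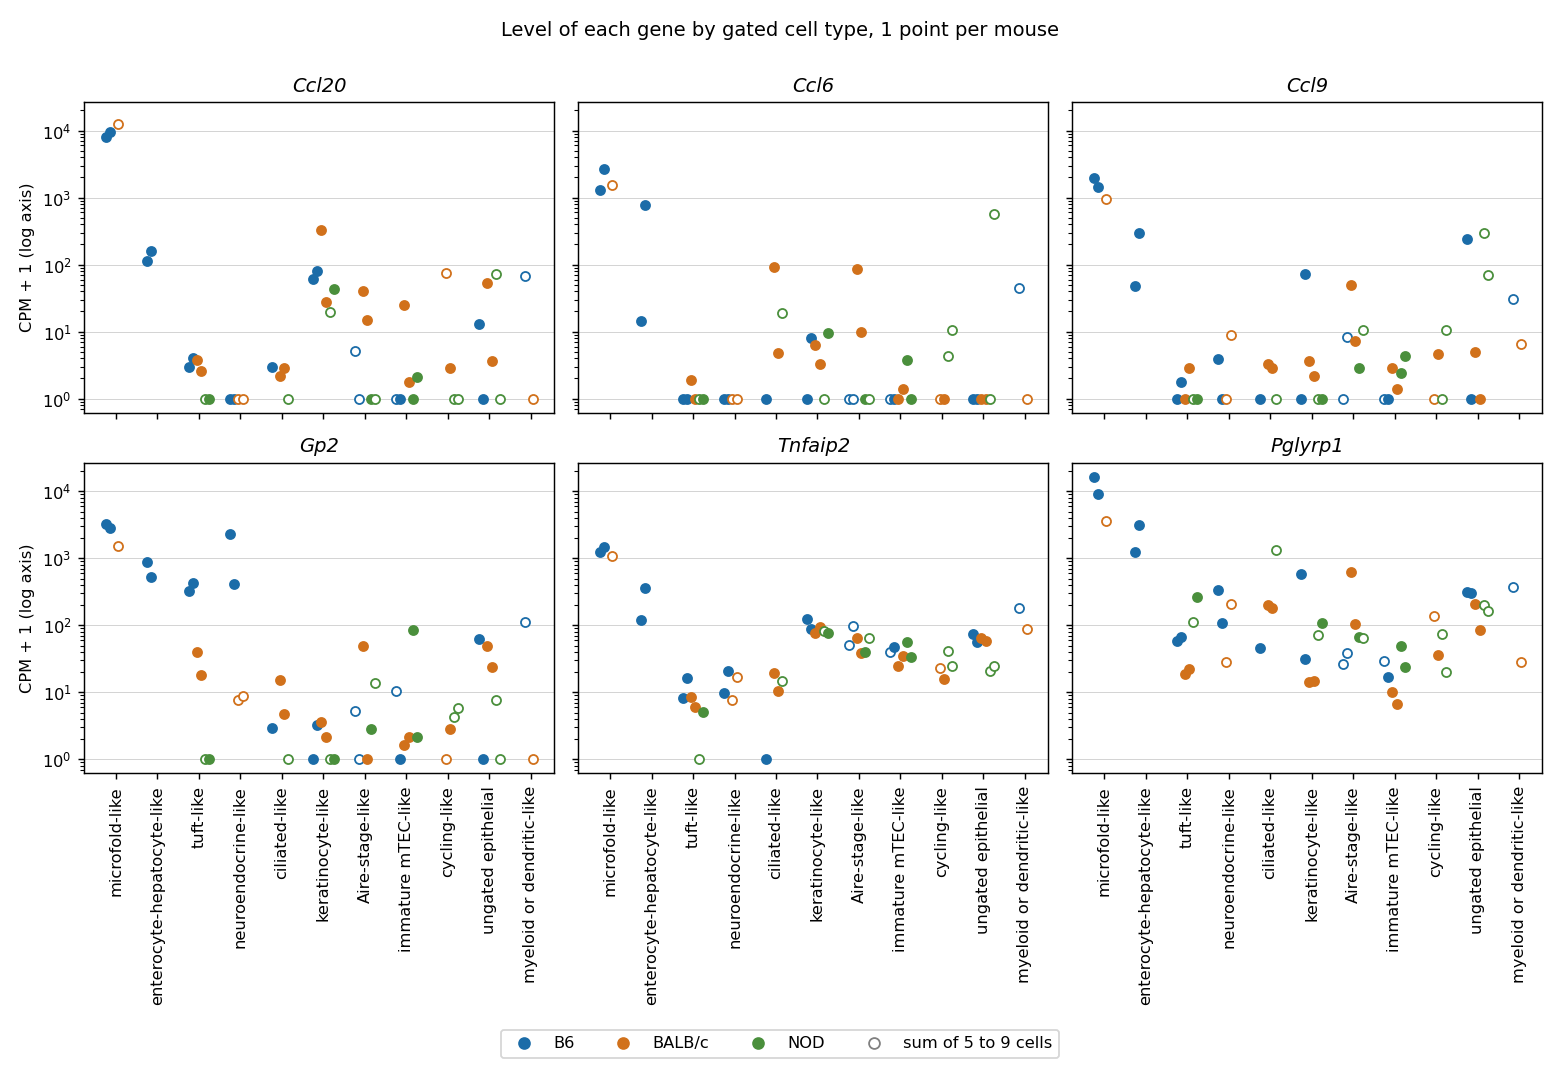
Level of each member (CPM plus 1, log axis) in each gated cell type, with 1 point per mouse and sums under 5 cells left out; open points are sums of 5 to 9 cells. The 3 chemokines stand highest in microfold-like cells with little elsewhere, whereas Gp2, Tnfaip2 and Pglyrp1 are also seen in other types.

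In the edgeR quasi-likelihood fit of sums of at least 10 cells per type and mouse, all 6 members were higher in microfold-like cells than in the mean of 10 other epithelial groups, against 9.5% of 14256 genes called higher and 12.6% called in either direction. The log2 differences were 11.33 for Ccl20 (SE 0.48, adjusted p = 8.63e-13), 11.90 for Ccl6 (SE 1.06, adjusted p = 1.03e-06) and 7.01 for Ccl9 (SE 1.14, adjusted p = 0.000275). Gp2 differed by 6.75 (SE 1.04, adjusted p = 0.00018), Pglyrp1 by 6.59 (SE 0.94, adjusted p = 7.36e-05) and Tnfaip2 by 5.84 (SE 0.34, adjusted p = 9.1e-12). Both microfold sums came from B6, and fitted differences of genes near 0 depend on the prior count. The call for Gp2 was lost without the cells that pass both gates, fitted on sums of at least 5 cells (4.63, adjusted p = 0.0563), and at a hashtag threshold of 95% (5.69, adjusted p = 0.0977). Each of these fits had 1 microfold sum, assumed to vary like the other types. Also lost was the call for Ccl6 against the sum of all other epithelial cells of each mouse (7.82, adjusted p = 0.264).

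Within the 37 cells the members did not form 1 block. All 6 were carried by 20 cells; 11 cells carried 5, 5 cells carried 4 and 1 cell carried 2. All 29 cells with Ccl6 also had Ccl9, and likewise Ccl20 and Pglyrp1, each of which was found in at least 35 of the 37 cells. Gp2 divided the cells most evenly, present in 25 and absent from 12, and 11 of the cells without it carried Ccl20. With cells thinned to 5000 UMIs (32 kept), the share with a UMI was 84.4% for Ccl20, 65.6% for Ccl6, 93.8% for Ccl9, 56.2% for Gp2, 90.6% for Tnfaip2 and 93.8% for Pglyrp1. Single cells also weighed differently: the highest cell held 27.9% of the Ccl6 UMIs of the 37 cells (495 UMIs), 24.9% of those of Gp2 (604), 18.8% of those of Pglyrp1 (1705) and 13.1% of those of Ccl20 (1038).

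The 29 cells that also passed the enterocyte-hepatocyte gate were set beside the 8 that did not, without a test. Ccl20 was at 11360 CPM in the 29 and 2981 CPM in the 8, Ccl6 at 2548 and 689.1, and Gp2 at 3488 and 935.2. Pglyrp1 was at 8482 and 19540 CPM, but 2 of the 8 cells held 2850 of its 3572 UMIs there, and without them the 8 fell to 6355 CPM, below the 29. Ccl9 (1532 and 1903) and Tnfaip2 (1288 and 1471) were close. B6 1 gave 6 of the 8 cells. Within B6 1 the 5 and 6 cells gave 12730 and 2570 CPM of Ccl20, 2188 and 273.1 of Ccl6, 5081 and 1197 of Gp2 and 12450 and 20630 of Pglyrp1, the last of which was 1318 CPM without the same 2 cells. In B6 2 the 19 and 1 cells had 2692 and 2673 CPM of Ccl6. With the other mice at 1 such cell at most, these are values of 1 mouse and were not tested.

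**Figure D2:**
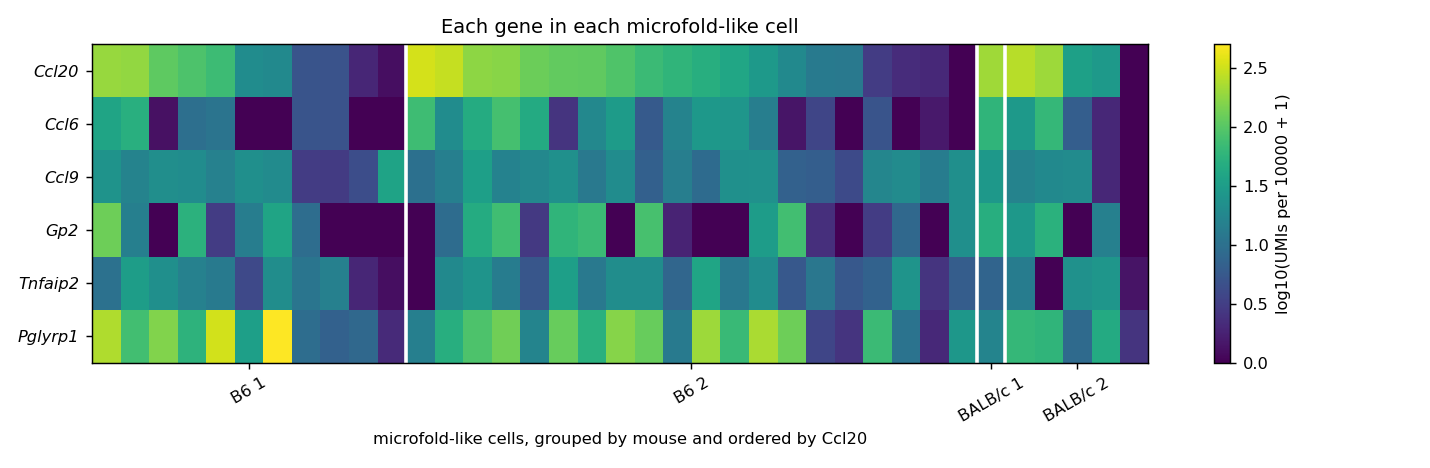
Each of the 37 microfold-like cells (columns, grouped by mouse and ordered by Ccl20 within a mouse) against the 6 members (rows), coloured by log10 of UMIs per 10000 plus 1. The darkest fields show cells without the gene: they are most frequent for Gp2 (12 cells) and Ccl6 (8 cells) and absent for Pglyrp1.

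The share of each member's epithelial UMIs that lay in microfold-like cells separated the chemokines from the other members. In B6, where these cells held 9.53% of all epithelial UMIs, they held 98.3% of the Ccl20 UMIs, 91.1% of Ccl6 and 88.2% of Ccl9, against 82.6% of Pglyrp1, 76.6% of Tnfaip2 and 46.2% of Gp2. In BALB/c they held 0.664% of the epithelial UMIs and 85.0%, 63.8% and 71.1% of the UMIs of the 3 chemokines, but 23.8% of Pglyrp1, 19.8% of Tnfaip2 and 49.0% of Gp2. Most Tnfaip2 and Pglyrp1 transcripts of BALB/c epithelium were thus outside the gate.

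Outside the gate, the rest was held by few cells or by many, depending on the gene. Of 1589 other epithelial cells, 28 carried Ccl6 and 51 carried Ccl9, and the 5 highest cells held 84.8% and 65.8% of those UMIs. Ccl20 was found in 64 cells (53.1% of UMIs in the top 5) and Gp2 in 159 (53.1%). Pglyrp1 was found in 437 cells (31.7%) and Tnfaip2 in 358 (11.6%). Free RNA in the droplets was not measured, so these counts may include cells whose few UMIs came from it. The highest single cells were a keratinocyte-like cell of BALB/c 1 for Ccl20 (127 UMIs), an enterocyte-hepatocyte-like cell of B6 2 for Ccl6 (85), an ungated cell of B6 1 for Ccl9 (56), the neuroendocrine-like cell of B6 1 for Gp2 (796), a cycling-like cell of B6 2 for Tnfaip2 (33) and an Aire-stage cell of BALB/c 1 for Pglyrp1 (368). The gate has no sharp edge: 6 cells lay within 20% above its threshold and 17 within 20% below it.

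**Figure D3:**
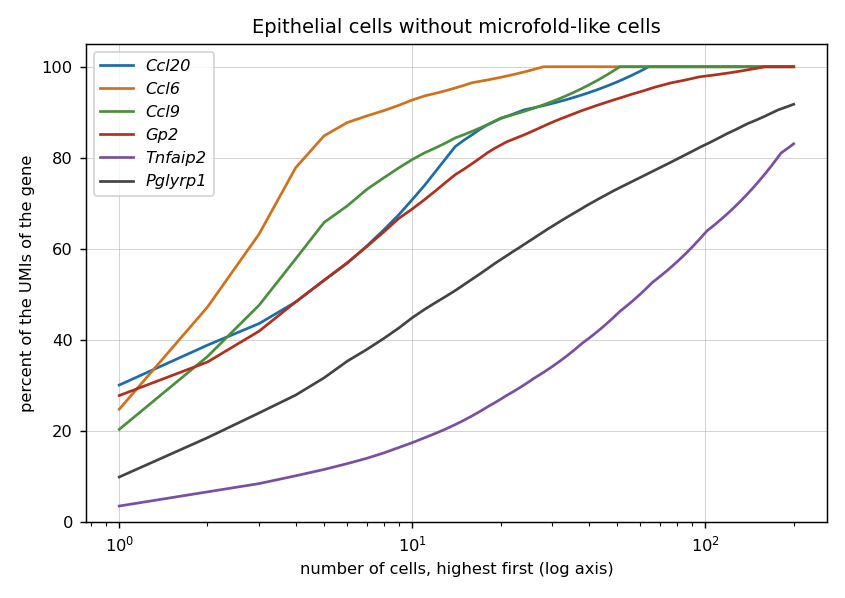
Share of each member's UMIs (percent) held by the cells with most of it, counted from the highest (log axis), over the 1589 epithelial cells outside the microfold gate. The Ccl6 curve is steepest, with 84.8% in 5 cells, and the Tnfaip2 curve is flattest, with 11.6% in 5 cells.

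Leukocytes contributed little. Among 22 myeloid or dendritic-like cells, Ccl20, Ccl6 and Ccl9 were each found in 3, Gp2 in 2 and Pglyrp1 in 7, and the 3 cells with Ccl20 all came from B6 2. Against the epithelial groups other than microfold-like cells, edgeR called Ccl20 (log2 difference 3.50, adjusted p = 0.0091) and Tnfaip2 (2.17, adjusted p = 3.31e-05) higher in these cells, 2 of 6 members where 16.1% of 11851 genes were called and 10.9% called higher. That fit rests on 2 sums of 7 cells, since no mouse had 10 such cells. A single cell of BALB/c 2 that passed the thymocyte gate carried all 6 members, with 142 UMIs of Ccl20 and 400 of Pglyrp1, and is not among the epithelial cells.

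Across whole epithelial compartments the members were highest in B6. Ccl20 stood at 651 and 1058 CPM (B6), 104.7 and 116.8 CPM (BALB/c) and 6.68 and 8.88 CPM (NOD), with no overlap between strains. Pglyrp1 stood at 1558 and 1230 CPM (B6), 114.7 and 69.3 CPM (BALB/c) and 189.6 and 140 CPM (NOD). Gp2 stood at 643.1 and 606.8 CPM (B6), 38.4 and 24.3 CPM (BALB/c) and 26.7 and 2.54 CPM (NOD). For Pglyrp1 and Gp2 both B6 mice were above all 4 others, and for Pglyrp1 both NOD mice were above both BALB/c mice. In NOD 1, 59 of the 64 Gp2 UMIs came from 1 immature mTEC-like cell.

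The other members had the same order with respect to B6. Ccl9 stood at 174.4 and 184.8 CPM (B6), 14.6 and 10.3 CPM (BALB/c) and 19.6 and 4.65 CPM (NOD). Tnfaip2 stood at 127.5 and 216.3 CPM (B6), 27.2 and 37.5 CPM (BALB/c) and 42.2 and 38.9 CPM (NOD). Ccl6 stood at 104.2 and 336.6 CPM (B6), 40.1 and 14.9 CPM (BALB/c) and 2.92 and 17.3 CPM (NOD). In NOD 1, 44 of the 47 Ccl9 UMIs came from 1 ungated cell, and the mouse had 1.27 CPM without it. B6 did not overlap the other strains for any of the 3, but the B6 mice themselves lay far apart for Ccl6. In such sums, fewer cells of a type and less RNA per cell cannot be told apart, and the microfold-like shares given above differ between the strains.

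BALB/c was lower than B6 for 5 of the 6 members (edgeR, adjusted p under 0.05), where 9.85% of 15674 genes were called in either direction and 4.86% were called lower. The log2 differences were -2.96 for Ccl20 (SE 0.25, adjusted p = 0.00268), -3.94 for Pglyrp1 (SE 0.30, adjusted p = 0.0025), -4.34 for Gp2 (SE 0.73, adjusted p = 0.033), -3.88 for Ccl9 (SE 0.47, adjusted p = 0.0114) and -2.41 for Tnfaip2 (SE 0.29, adjusted p = 0.00846). Ccl6 did not pass (-3.04, SE 0.91, adjusted p = 0.126). Tnfaip2 alone kept its call under every alternative run. Leaving out any 1 of B6 1, B6 2, BALB/c 1 and BALB/c 2 ended the calls of Ccl9 (adjusted p 0.0563, 0.0622, 0.0776 and 0.115 in that order) and Gp2 (0.122, 0.128, 0.156 and 0.224), and so did testing Gp2 without the filter on low counts (0.128). Without the cells passing both gates, Ccl20 (-2.08, adjusted p = 0.147) and Pglyrp1 (-3.37, adjusted p = 0.0553) missed the threshold.

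NOD was also lower than B6 for 5 of the 6 members, beside 26% of genes called and 12.9% called lower. This comparison shares the B6 mice with the previous one. The log2 differences were -6.69 for Ccl20 (SE 0.33, adjusted p = 0.000374), -2.997 for Pglyrp1 (SE 0.289, adjusted p = 0.00188), -5.33 for Gp2 (SE 0.82, adjusted p = 0.0133), -3.80 for Ccl9 (SE 0.51, adjusted p = 0.00648) and -1.998 for Tnfaip2 (SE 0.302, adjusted p = 0.00685). Ccl20 kept its call under every alternative run, at -3.39 (adjusted p = 0.0437) without the cells passing both gates and -5.59 (adjusted p = 0.00546) at a hashtag threshold of 95%. Ccl6 lay at -4.36 (SE 1.095, adjusted p = 0.0506), and with DESeq2 at -4.34 (adjusted p = 0.00186). The Gp2 call ended without B6 1, without B6 2 or without the filter (adjusted p = 0.0547, 0.0602 and 0.0716), the Tnfaip2 call without NOD 1 or without NOD 2 (0.0555 and 0.0548), and the Ccl9 and Pglyrp1 calls without the cells passing both gates (0.0979 and 0.0826).

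Between NOD and BALB/c, Ccl20 was lower in NOD by 3.73 on the log2 scale (SE 0.32, adjusted p = 0.00359), the only 1 of the 6 members called, where 7.69% of genes were called and 4.41% called lower. The other members gave log2 differences of 0.95 for Pglyrp1 (adjusted p = 0.0929), -0.99 for Gp2 (adjusted p = 0.508), 0.08 for Ccl9 (adjusted p = 0.95), -1.31 for Ccl6 (adjusted p = 0.534) and 0.42 for Tnfaip2 (adjusted p = 0.447). The Ccl20 call missed the threshold at a hashtag threshold of 95% (-2.895, adjusted p = 0.0515) and without the cells passing both gates (-1.31, adjusted p = 0.42), and Gp2 passed without NOD 1 (-3.49, adjusted p = 0.0358).

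Without the 37 microfold-like cells the picture was different for each gene. Ccl20 had 11.96 and 20.4 CPM (B6), 34.9 and 4.75 CPM (BALB/c) and 6.68 and 8.88 CPM (NOD), so the strains overlapped. Tnfaip2 had 29.6 and 59.99 CPM (B6), 25.1 and 28.1 CPM (BALB/c) and 42.2 and 38.9 CPM (NOD), with B6 spanning NOD. Ccl6 and Ccl9 had at most 43.5 and 27.9 CPM in any mouse, and the strains overlapped for Ccl6 too. For Ccl9, B6 (mean 23.48 ± 6.24 SD, n = 2) lay above BALB/c (3.88 ± 2.71 SD, n = 2) without overlap. NOD (12.14 ± 10.59 SD, n = 2) overlapped both, and its higher value rested mainly on the ungated cell described above. Pglyrp1 had 276.1 and 261.2 CPM (B6), 109.9 and 38.2 CPM (BALB/c) and 189.6 and 140 CPM (NOD), without overlap. Gp2 had 414.5 and 326.3 CPM (B6), 22.3 and 10.7 CPM (BALB/c) and 26.7 and 2.54 CPM (NOD), so both B6 mice still stood far above the others.

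With the gate as set, Gp2 was the 1 of the 6 members called in these cells: -4.50 for BALB/c minus B6 (SE 0.81, adjusted p = 0.0429), where 8.92% of 15445 genes were called and 4.16% called lower, and -4.55 for NOD minus B6 (SE 0.87, adjusted p = 0.0238), where 27% were called and 13.2% called lower. The Gp2 call against BALB/c ended without B6 1, B6 2, BALB/c 1 or BALB/c 2 (adjusted p 0.164, 0.144, 0.148 and 0.239), and that against NOD without B6 1 or B6 2 (0.0949 and 0.0876); without the filter both missed the threshold (0.145 and 0.111). Without all neuroendocrine-like cells, and so without the cell of 796 UMIs, the differences were -3.99 (adjusted p = 0.0496) and -4.04 (adjusted p = 0.0279). Pglyrp1 gave -1.86 for BALB/c minus B6 (adjusted p = 0.088), and without BALB/c 1, which holds the Aire-stage cell of 368 UMIs, -2.76 (adjusted p = 0.0125). It also passed with DESeq2 (-1.87, adjusted p = 0.000367), with the replicate block (-1.997, adjusted p = 0.0387) and with leukocyte-like cells included (-1.52, adjusted p = 0.0083). Ccl9 gave -2.63 for BALB/c minus B6 (adjusted p = 0.0906), and passed without NOD 1 (-2.61, adjusted p = 0.0424) or NOD 2 (-2.62, adjusted p = 0.0448), which share the estimate of spread, with DESeq2 (-2.62, adjusted p = 0.00973), without the filter (-2.57, adjusted p = 9.78e-07) and with Leiden clusters (-4.01, adjusted p = 0.0183). For NOD minus BALB/c, where 7.99% of genes were called, no member was called. Pglyrp1 gave 1.27 there (adjusted p = 0.19), and it passed without BALB/c 1 (2.18, adjusted p = 0.0251), with DESeq2 (1.28, adjusted p = 0.0329) and with leukocyte-like cells included (0.88, adjusted p = 0.0345).

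These calls moved when cells scoring at least 0.75 of the microfold threshold were left out as well, which left 1562 of the 1589 cells, an alternative chosen after seeing the data. In edgeR, Pglyrp1 (-2.50, adjusted p = 0.00198) and Ccl9 (-3.79, adjusted p = 0.00771) were then also lower in BALB/c than in B6. Ccl9 was lower in NOD than in B6 (-2.82, adjusted p = 0.0106, against -0.84 and adjusted p = 0.432 with those cells). Pglyrp1 was higher in NOD than in BALB/c (1.998, adjusted p = 0.00387).

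**Figure D4:**
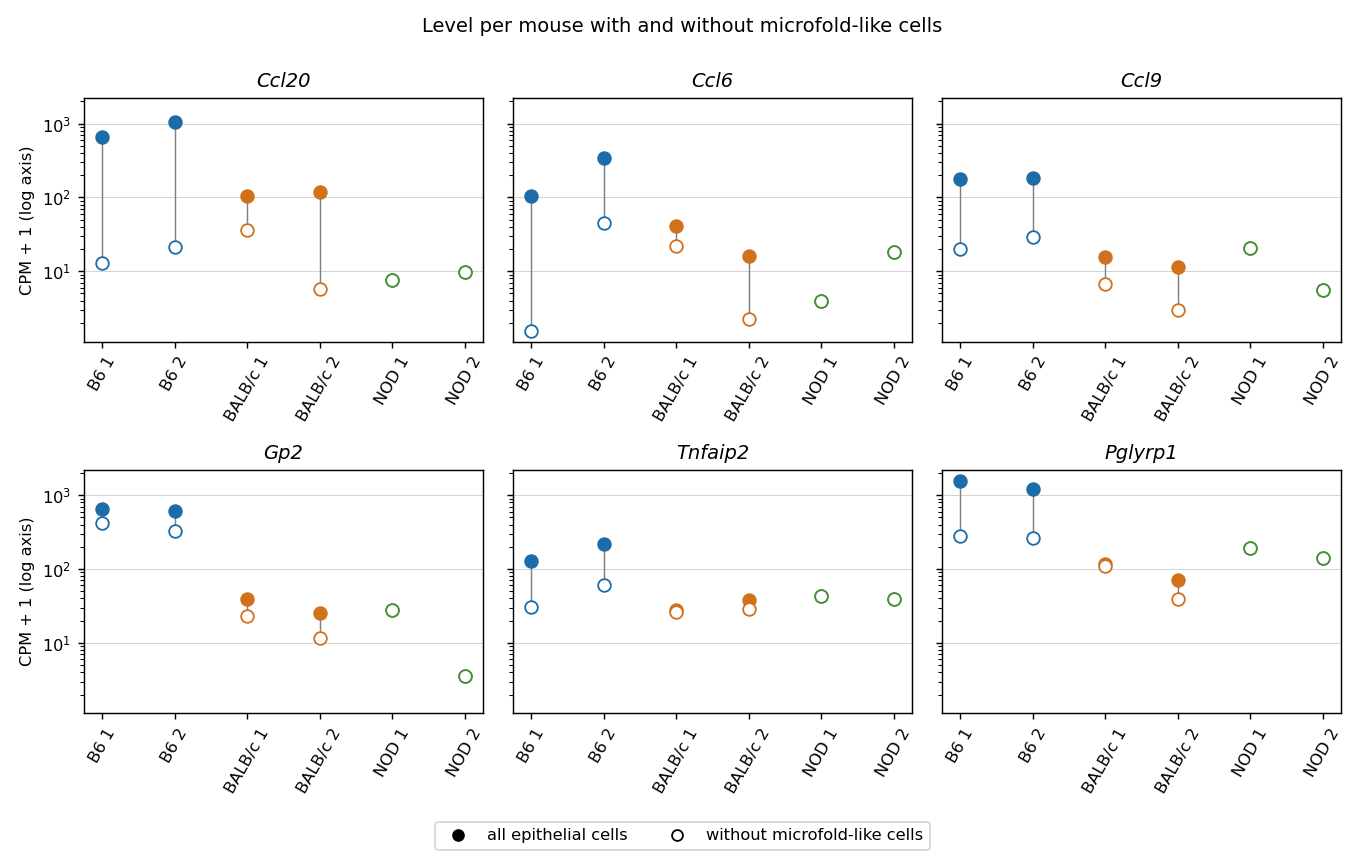
Level of each member per mouse (CPM plus 1, log axis) in all epithelial cells (filled) and without microfold-like cells (open); in NOD the points coincide, since no cell passed the gate. Removing these cells brings the B6 values of Ccl20 into the range of the other strains, whereas the B6 values of Gp2 stay above 300 CPM.

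Within tuft-like cells, which sense luminal signals through a taste-like pathway, Gp2 and Pglyrp1 also differed by strain. Gp2 stood at 321 and 434 CPM in B6 (377.5 ± 79.9 SD, n = 2) and at 38.5 and 16.9 CPM in BALB/c (27.7 ± 15.2 SD, n = 2). It was found in 68 of 208 B6 cells and 29 of 300 BALB/c cells, and after thinning to 5000 UMIs in 27.7% and 6.498%. In NOD it was found in 0 of 9 and 0 of 10 cells, which allows up to 15.3 and 12.3 CPM by the limit of 3 counts and up to 18.8 and 15.1 CPM by the exact Poisson interval. These limits lie below both B6 sums, but the interval of NOD 1 reaches past the 16.9 CPM of BALB/c 2. The log2 difference of BALB/c from B6 was -3.87 (SE 0.44, edgeR adjusted p = 0.0148). The call ended without B6 1 (-4.07, adjusted p = 0.169) or without B6 2 (-3.63, adjusted p = 0.188).

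The tuft-like cells fell into several clusters, made without the members, whose shares differed between strains, and Gp2 was uneven over them. Cluster 12 held 41.8% of the B6 and 33.7% of the BALB/c tuft-like cells, cluster 8 held 38.9% and 22%, and cluster 3 held 15.9% and 27%, while cluster 15 held 12% of the BALB/c cells, 2 NOD cells and 1 B6 cell. In cluster 12, Gp2 stood at 209.1 and 814 CPM (B6) against 25.6 and 47.4 CPM (BALB/c). In cluster 8 it stood at 304 and 145.4 CPM (B6) against 191.2 and 46.9 CPM (BALB/c), so the strains overlapped. In cluster 3 it stood at 28.8 and 54.7 CPM (B6) against 0 and 0.696 CPM (BALB/c), and in cluster 15 no UMI was found. In the neuroendocrine cluster, 4 tuft-gated B6 cells held 212 of the 1061 Gp2 UMIs of B6 tuft-like cells.

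Pglyrp1 in tuft-like cells stood at 56.7 and 66.5 CPM (B6), 18.1 and 20.98 CPM (BALB/c) and, from 9 and 10 cells, 112 and 261.7 CPM (NOD). The 3 strains did not overlap, but 1 cell of NOD 1, in cluster 12, held 14 UMIs, and the value without it was not tested. In cluster 3, the 5 cells of NOD 1 had 15.4 CPM and the 2 cells of NOD 2 had 128 CPM, against 17.99 and 32.8 CPM in B6. BALB/c differed from B6 by -1.68 on the log2 scale (SE 0.20, edgeR adjusted p = 0.000149) and kept that call under the 6 alternatives run. With Gp2, 2 of the 3 members tested in tuft-like cells were thus lower in BALB/c, where 19.4% of 11720 genes were called and 9.41% called lower. Tnfaip2 was not called (-0.89, adjusted p = 0.207), and the 3 chemokines had too few counts to be tested.

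In immature mTEC-like cells, the Ccl21a-expressing stage, Pglyrp1 was low but ordered by strain between BALB/c (9.29 and 5.60 CPM) and NOD (48.97 and 22.6 CPM), with B6 1 at 28.8 and B6 2 at 15.7 CPM. In NOD 1, 1 cell held 18 of the 35 UMIs, and the value was 25.2 CPM without it. The log2 difference of NOD from BALB/c was 2.33 (SE 0.40, edgeR adjusted p = 0.000294), with 7.19% of 10541 genes called and 4.48% called higher, and it was kept under the 5 alternatives that gave a value. The clusters of this gate also differed in share: cluster 4 held 44.96% of the BALB/c and 14.2% of the NOD cells, and cluster 5 held 13.6% and 52.5%. Within cluster 6, which held 32.7% and 30.8%, Pglyrp1 stood at 42.3 and 34.5 CPM for the NOD mice against 5.67 and 4.96 CPM for the BALB/c mice. Tnfaip2 did not pass in these cells (0.60, adjusted p = 0.245). In keratinocyte-like cells (0.363% of genes called) and ungated epithelial cells (1.89% called), 3 members each were tested between BALB/c and B6 and none was called.

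**Figure D5:**
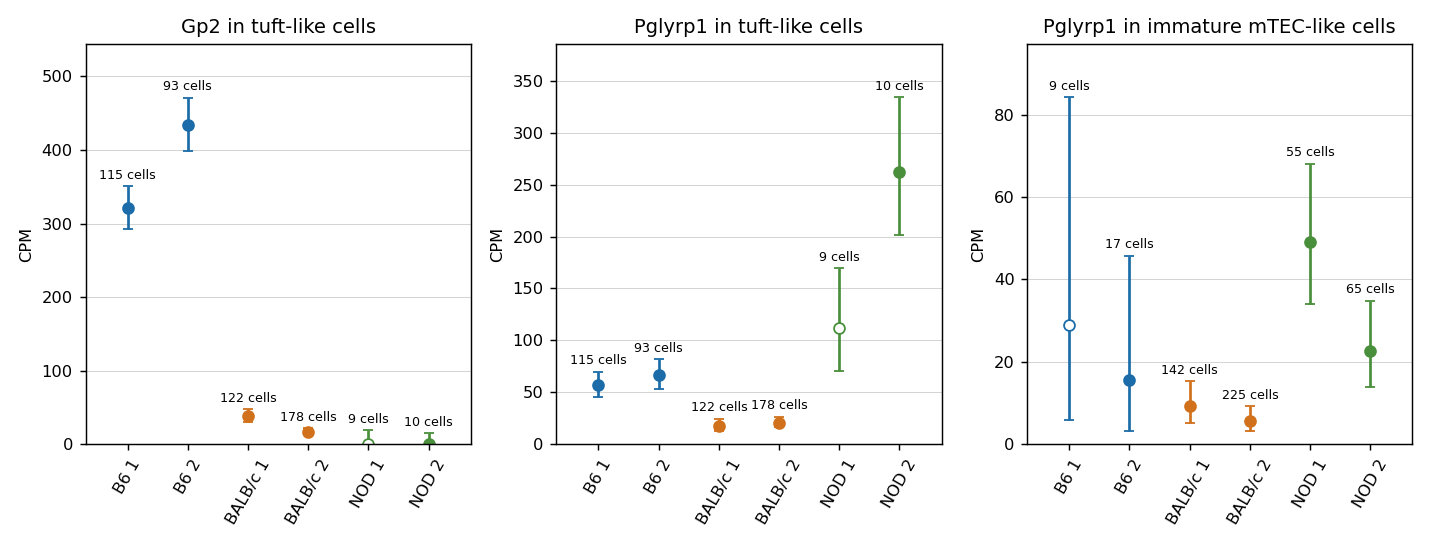
Level (CPM) of Gp2 and Pglyrp1 in tuft-like cells and of Pglyrp1 in immature mTEC-like cells, with 1 point per mouse, its number of cells and 95% exact Poisson intervals that cover counting error only; open points are sums under 10 cells. Gp2 is high in both B6 mice alone, whereas Pglyrp1 in tuft-like cells is lowest in BALB/c and highest in NOD. The NOD 1 value of Pglyrp1 in tuft-like cells includes 1 cell with 14 UMIs.

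Receptors of the member chemokines were looked for in the same cells. Ccr1, a receptor of Ccl6 and Ccl9, was found in 11 of 37 microfold-like cells (104 CPM) and in 4 of 1589 other epithelial cells (0.251 CPM). It could not be fitted over types that held no count. Against the sum of all other epithelial cells, Ccr1 was higher in microfold-like cells by 8.8 on the log2 scale (SE 0.987, edgeR adjusted p = 1.2e-12). Both microfold sums of that fit came from B6. It was added after the data had been seen and had 8 sums and 1 residual degree of freedom. Its p-value therefore leans on the spread of other genes. Ccr6, the receptor of Ccl20, was found in 3 of 37 microfold-like cells and 11 of 22 myeloid or dendritic-like cells, and Ccr3 in 0 of 37, which allows a share of cells with a UMI of up to 8.11%.

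Genes of the wider program moved with the members to different degrees. Of 18 other microfold genes, 15 were higher in microfold-like cells and none lower, 1 was not called and 2 could not be fitted, beside 9.5% of all genes called higher. Of the 15, 8 were gate markers, whose height the gate itself fixed, among them the 4 largest, Hamp (10.34), Tnfrsf11b (7.10), Sox8 (6.69) and Serpinb1a (6.11). Of the 9 genes that are no gate markers, 7 were higher (median log2 difference 2.54, against -0.17 over all genes). Of 14 tested RANK and NF-kB pathway genes outside the gate markers, 8 were higher, including the receptor RANK itself (Tnfrsf11a, 2.60), Birc3 (1.94) and Relb (1.78). Of 24 tested chemokines outside the members, 3 were higher, 11 were not called and 10 could not be fitted. Over all 14256 genes, 9.5% were called higher and 2486 could not be fitted. The 3 were Ccl25 (4.87), which guides lymphocytes through Ccr9, Ccl2 (3.57) and Cxcl16 (2.88). Of 14 tested microbial recognition genes, 4 were higher, 5 were not called and 5 could not be fitted. The 4 were the sialic acid receptor Siglecf (6.65), Pglyrp2 (6.03), which like Pglyrp1 binds peptidoglycan, Umod (5.94), a relative of Gp2, and Prnp (1.92).

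Between strains, over all epithelial cells, 7 of the 18 other microfold genes were lower in BALB/c than in B6 and none higher, beside 4.86% of all genes called lower, led by Hamp (-3.04), Serpinb1a (-2.24), Sox8 (-1.65) and Esrrg (-1.36), of which the first 3 are gate markers. In NOD against B6, where 26% of all genes were called and 12.9% called lower, 5 were lower, led by Hamp (-7.56), and 2 higher, including Icosl (1.61). Without microfold-like cells, 1 of the 18 was lower in BALB/c than in B6 (Esrrg, -1.21), where 4.16% of all genes were called lower. In NOD against B6 there, 6 were higher and 2 lower, beside 27% of all genes called and 13.2% called lower. In NOD against BALB/c, 6 were higher and 0 lower, beside 7.99% of all genes called. In tuft-like cells, where 9.41% of all genes were called lower, 4 of 15 tested were lower in BALB/c: Serpinb1a (-2.78), Esrrg (-1.93), Icosl (-1.43) and Clu (-0.61), so Gp2 and Pglyrp1 were not the only genes of this program that were lower there. Of the recognition genes, Pglyrp2 (-2.24), Pglyrp4 (-2.92) and Pigr (-1.69), the transporter of polymeric immunoglobulins, were among 4 of 16 lower in BALB/c than in B6, and 2 were higher, led by the scavenger receptor Marco (8.02). In immature mTEC-like cells, 7 of 15 tested microfold genes were higher in NOD than in BALB/c, beside 4.48% of all genes, and 1 lower, led by Prnp (1.69) and Scg5 (-1.52), and Ccl8 was higher by 4.37.

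Over the 33 sums of at least 10 cells per type and mouse, the patterns of the members were compared with 15636 genes by Pearson correlation of log2(CPM + 1). These sums share mice and types, and the values are descriptive. Among the members, Ccl6 and Ccl9 (r = 0.790) and Ccl20 and Tnfaip2 (r = 0.782) were most alike, and Gp2 and Tnfaip2 least (r = 0.346). The gene most like Ccl20 was 2010003K11Rik (0.875), followed by the peroxidase gene Gpx1 (0.817), which was also closest to Tnfaip2 (0.888). Adgrd1 was closest to Ccl9 (0.820). Cdh17, an intestinal cadherin, was closest to Pglyrp1 (0.838) and Slc25a23 to Gp2 (0.805).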

How the data were processed

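Gene expression was measured by droplet RNA sequencing (3' chemistry) in 1 pool of thymic cells from 6 mice. The deposited matrix holds UMI counts per gene and barcode, whole numbers that the authors made with Cell Ranger 7.0.0 on mm10, per the submitters' processing notes; the annotation release is not given in the sources used here. The deposited hashtag counts list 15 features, of which 6 were used as the labels assign them and 9 were not used. The title gives both NOD hashtags the same replicate number; they were kept as 2 mice, since the design text gives 2 mice per strain. The mm10 genome is that of B6, and the effect of strain variants on the counts of the members was not tested.

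Barcodes needed at least 500 genes, under 15% mitochondrial UMIs, at least 100 hashtag UMIs and 80% of these on 1 hashtag. The deposited matrix held 0 duplicated barcodes. No doublet caller was run: droplets with mixed hashtags were left out, and doublets within a mouse remain. A cell type score was the mean natural log of 1 plus UMIs per 10000 over its markers, of which 3 had to be detected. The cell took the type with the highest ratio of score to threshold, and a cell past both the microfold and the enterocyte-hepatocyte threshold was taken as microfold-like. Ungated cells with at least 2 epithelial markers were kept as ungated epithelial. The members and the lists were chosen with earlier results of these data known.

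UMIs were summed per mouse, or per type and mouse with at least 10 cells, and tested with edgeR 4.0.16 (quasi-likelihood, TMM, filterByExpr, robust; R 4.3.3, limma 3.58.1) with Benjamini-Hochberg adjustment over all genes tested and a threshold of 0.05. Over all epithelial cells, with or without microfold-like cells, all 3 strains entered 1 fit. Fits within a type held only the strains with at least 10 cells in each mouse. In these strain comparisons p-values measure the spread between mice. Comparisons between types had cell type and mouse as terms. Their p-values measure the spread left among the sums after both terms. The myeloid fit used sums of at least 5 cells. Estimates with an SE over 50 were taken as not fitted. The BALB/c minus B6 fit, with and without microfold-like cells, was checked on counts simulated with the same spread for every gene. Fits within a type and between types were not checked in this way. Alternatives used DESeq2 1.42.0, other filters and thresholds, Leiden clusters (scanpy 1.11.5) and leaving out each mouse. Further alternatives were added after the data had been seen. These left out cells passing both gates, cells near the microfold threshold or neuroendocrine-like cells. The comparison with the sum of all other epithelial cells was added likewise. Named were all members, and from each list at most the 4 called genes with the largest difference; likeness used genes with at least 50 UMIs. Some genes that these rules would name are not reported here. Depth per mouse was 2369670 to 10253848 UMIs, 30808720 in all.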

Additional observations from a re-analysis of the deposited data

Results flagged for a closer look

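Among the 822 barcodes that passed the filters but were assigned to no mouse, 16 passed the microfold gate, a signal in data that no comparison used. In 15 of them no hashtag held 80% of the hashtag UMIs, and 1 had too few hashtag UMIs. The leading hashtag was one of B6 in 15, of BALB/c in 1 and of NOD in 0. Their median depth was 17234 UMIs. Ccl20, Ccl6, Ccl9, Tnfaip2 and Pglyrp1 were found in all 16 and Gp2 in 11, at 11750, 4117, 2033, 1678, 7252 and 3359 CPM. Whether these droplets hold cells of more than 1 mouse was not tested.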

How the results depend on the processing

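Of 698 member values under an alternative, 600 kept their direction and side of the threshold, 34 lost the call, 34 gained it and 30 changed sign, 0 of them of a called member. Of 130 counts of called genes, 44 lay over 1.5 times from the main count; where not stated, the cause was not tested. Without the filter on low counts, which tests more genes, 3325 (BALB/c minus B6) and 2968 (NOD minus BALB/c) genes were called over all epithelial cells, and 3167 and 2943 without microfold-like cells. At 95% of hashtag UMIs, which leaves fewer cells, the counts were 303 in immature mTEC-like, 43 in keratinocyte-like and 630 in tuft-like cells and 780 for microfold-like cells against other types. That last count was 1004 with at least 20 cells a sum, 358 without cells passing both gates at 5 cells a sum, and 3581 against the sum of all other epithelial cells. Ccl6 and Ccl9 could not be fitted there at 95%.

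Leaving out 1 mouse gave 257 to 1780 (BALB/c minus B6), 2166 to 3180 (NOD minus B6) and 170 to 840 (NOD minus BALB/c) genes over all epithelial cells, and 196 to 1654, 2241 to 3242 and 170 to 871 without microfold-like cells. It gave 663 to 808 in immature mTEC-like, 53 to 231 in keratinocyte-like, 1200 to 2064 in tuft-like and 163 to 271 in ungated cells, and 638 to 1791 between types. A strain left with 1 mouse is assumed to vary like the others.

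Same-numbered mice deviated together only weakly (correlations 0.077, 0.137 and 0.048). With 2 mice per strain, these values cannot show whether the numbers pair the mice. With the replicate block, 1908, 4240 and 1327 genes were called over all epithelial cells, against 1544, 4074 and 1206 without it. Gp2 in BALB/c minus B6 gave -4.40 with the block (edgeR adjusted p = 0.0521). Without microfold-like cells the block gave -0.028 for Ccl20 (BALB/c minus B6), 0.025 for Tnfaip2 (NOD minus B6) and -0.486 for Ccl6 (NOD minus BALB/c), and Pglyrp1 passed in BALB/c minus B6 (-1.997, adjusted p = 0.0387). Over all epithelial cells Pglyrp1 passed in NOD minus BALB/c (0.964, adjusted p = 0.012).

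The uncalled member values that changed sign were these, as log2 differences. Over all epithelial cells, NOD minus BALB/c gave 0.689 for Ccl6 without cells passing both gates, -0.259 for Pglyrp1 at 95% of hashtag UMIs, and, for Ccl9, -0.067 with Leiden clusters, -0.074 with leukocyte-like cells and -1.292 to 0.775 without 1 mouse. Without microfold-like cells, BALB/c minus B6 gave -0.086 for Ccl20 without cells near the threshold, -1.707 to 1.126 for Ccl20 and -4.053 to 4.174 for Ccl6 without 1 mouse. NOD minus B6 gave 0.069 for Ccl9 at 95%, and without 1 mouse -2.770 to 4.199 for Ccl6 and -0.432 to 0.559 for Tnfaip2. NOD minus BALB/c gave -0.003 for Ccl6 without the filter and -0.180 with leukocyte-like cells, and for Gp2 0.999 at 95% and 0.173 without cells near the threshold. Without 1 mouse it gave -2.040 to 0.782 for Ccl20, -1.748 to 3.075 for Ccl6 and -2.553 to 0.813 for Gp2. Without 1 mouse, Ccl20 in keratinocyte-like cells gave -1.327 to 2.197, and in ungated cells Gp2 gave -0.872 to 6.238 and Tnfaip2 -0.328 to 0.156. Of the 5 genes most like each member, 2 to 4 were shared at a pseudocount of 0.1 and 0 to 5 at 10. Members at few UMIs outside the gate are limited by depth.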
